A study of Arabidopsis thaliana with 38 samples.

Results

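The genes described here are the 10 seed storage protein genes of Arabidopsis thaliana that were picked by their gene identifiers from the expression tables. They are the cruciferins CRA1 (AT5G44120), CRB (AT1G03880), AT1G03890 and CRU3 (AT4G28520), the 2S albumins SESA1 to SESA5 (AT4G27140, AT4G27150, AT4G27160, AT4G27170 and AT5G54740) and the vicilin PAP85 (AT3G22640). All 10 were among the 26925 genes listed in the table of globular seeds and in that of endosperm after 24 h of water imbibition (24HAI), and 1 of them was among the 640 genes listed for mature endosperm. RNA-seq was made from plants labelled vel3 and from wild-type Col-0 plants, 3 libraries per genotype and stage, to ask how loss of VEL3, a gene related to the vernalization gene VIN3, alters expression in developing and dormant seeds. The methods of the study name a T-DNA insertion, vel3-1, as the mutant, which is 1 insertion line. Globular seeds, which hold embryo, endosperm and maternal seed coat together, were dissected at 8 days after pollination from plants grown at 16 °C, with 3 to 5 siliques pooled per library. The mature and 24HAI samples were endosperm-enriched tissue of seeds that were also set at 16 °C and were imbibed for 1 h and 24 h.

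Storage proteins fill the protein storage vacuoles of the embryo and endosperm during seed maturation and are broken down after germination as a source of amino acids. Cruciferins are the 12S globulins of Brassicaceae, hexamers whose subunits are cut after synthesis into an acidic and a basic chain. The 2S albumins, or napins, are small sulphur-rich proteins of a pair of disulphide-linked chains, and PAP85 is a vicilin-like globulin of the same cupin fold as the cruciferins. Their genes are switched on during maturation by the B3 factors ABI3, FUS3 and LEC2 with the CCAAT-box factor LEC1 and several bZIP factors. Transcripts made before the seed dries are stored in it, so a level measured early in imbibition can reflect stored as well as newly made RNA.

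The 10 genes lie at 6 places in the genome, given here in build TAIR10.1 with the RefSeq annotation. SESA1 to SESA4 stand in tandem on the plus strand at chr4:13607329-13614283, a stretch of 6955 bp, and each has 1 exon, as does SESA5 on chr5:22238358-22239187 (minus strand). CRB (chr1:985751-988146) and AT1G03890 (chr1:989198-991020) are neighbours on the plus strand with 1051 bp between them. CRA1 is at chr5:17756238-17758336 (minus), CRU3 at chr4:14087556-14089796 (plus), and the 4 cruciferins have 4 exons each. PAP85 (chr3:8011724-8013941, minus) has 5 exons. No annotated gene overlaps any of the 10. The coding sequences of CRA1 and CRB were 73.9% identical and those of the other cruciferin pairs 53.7% to 59.4%. SESA1 to SESA4 shared 80.6% to 89.7% of their coding bases, with SESA2 and SESA3 the closest pair and an identical run of up to 49 nucleotides in their transcripts, whereas SESA5 shared 60.9% to 62.8% with them. The paired-end reads of the study were longer than that run as sequenced, and how a read that fits more than 1 of SESA1 to SESA4 was counted is not given in the sources used here.

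Levels are TPM, the share of transcripts that a gene takes in its library with gene length taken into account, so levels of different genes can be set side by side within a table. Differences are given on the log2(TPM + 1) scale, libraries labelled vel3 minus Col-0, from limma fitted over every gene that averaged 1 TPM or more in the 6 libraries, and a gene was called changed at an adjusted p under 0.05 (Benjamini-Hochberg over all tested genes) and at least 2-fold. The deposited tables held no counts, so no counting error is given. VEL3 itself was at 9.79, 8.30 and 13.0 TPM in the globular libraries labelled vel3, against 1.34, 1.99 and 2.23 TPM in Col-0, so the transcript went against the label, and every direction below is that of the libraries labelled vel3. At 24HAI VEL3 was between 0 and 0.160 TPM in the libraries labelled vel3 and at 0 in Col-0, which checks nothing. In globular seeds, library 3 labelled vel3 stood apart: 4212 nuclear genes listed at 0 in every 24HAI library had a median of 10.0 TPM there, of 1.43 and 0.322 TPM in libraries 1 and 2 labelled vel3, and of 0.317 to 0.613 TPM in Col-0. At 24HAI, Col-0 library 2 held the lowest Col-0 value of all 10 storage genes. The results that moved most without these libraries are given with and without them.

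In 24HAI endosperm the storage genes were among the most abundant transcripts of the tissue in libraries of either genotype. By mean TPM over the 6 libraries CRA1 ranked 2 of 26925 genes, CRU3 6, SESA3 8, SESA5 9 and PAP85 11. SESA2 ranked 27, SESA4 32, SESA1 52 and CRB 138, while AT1G03890 ranked 5719. The 10 genes took 7.38%, 7.69% and 7.87% of the TPM sum in the libraries labelled vel3, against 9.09%, 6.84% and 8.57% in Col-0. The 2 ranges overlapped, with Col-0 library 2 lowest of all 6, and the difference of the means was -0.521 percentage points (exact permutation test, two-sided, p = 0.5; 3 against 3 libraries cannot go below 0.1). Without Col-0 library 2 the difference was -1.18 percentage points.

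**Figure D1:**
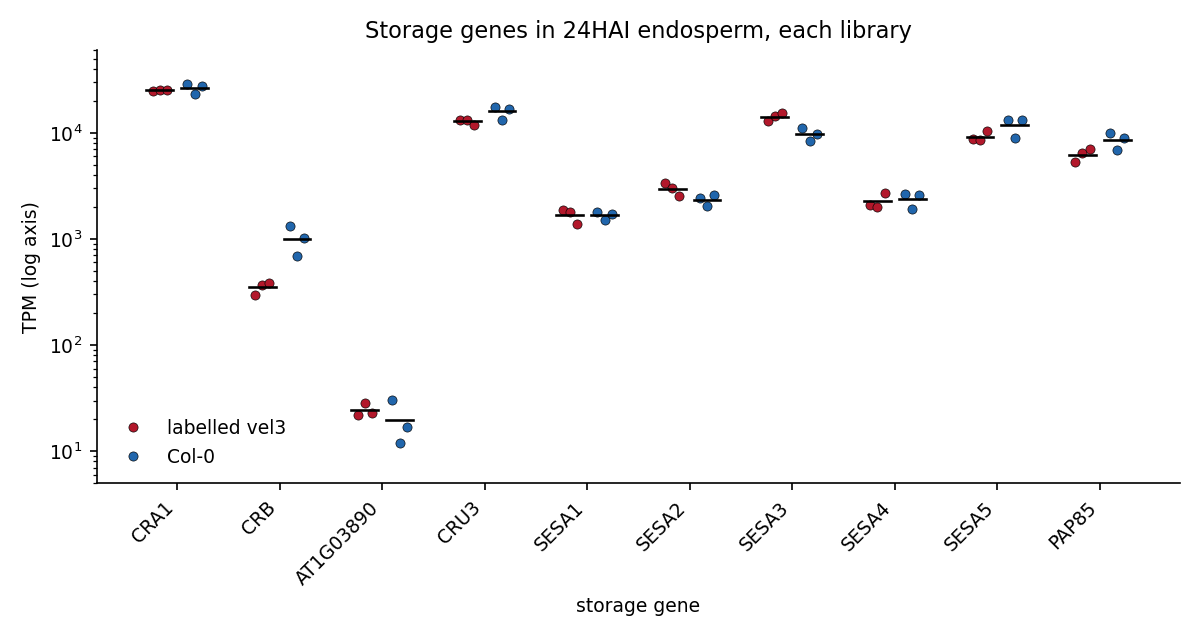
TPM of the 10 storage genes (x axis) in each 24HAI library on a log axis, with libraries labelled vel3 in red, Col-0 in blue and the mean of the 3 libraries as a bar. The CRB points of the libraries labelled vel3 (296 to 387 TPM) lie below those of Col-0 (698 to 1310 TPM), and the SESA3 points lie above.

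1 of the 10 genes was called at 24HAI, CRB, which was lower in the libraries labelled vel3, and 0 were called higher. Over all 15918 genes tested 2.4% were called, 0.697% lower and 1.7% higher. The median log2 difference of the 10 was -0.08, beside -0.00 over all genes tested, with 3 differences above 0 and 7 below. All 10 passed the filter on low values, and 3 had an unadjusted p under 0.05 in limma (CRB, SESA3 and PAP85). The share of all tested genes with an unadjusted p under 0.05 was not counted, so no excess is read from these 3. An adjusted p under 0.05 was reached by 7.6% of all tested genes.

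CRB, the cruciferin subunit nearest in sequence to CRA1, was at 296, 372 and 387 TPM in the libraries labelled vel3, against 1310, 698 and 1013 TPM in Col-0. Every library labelled vel3 was below every Col-0 library, as were 14.5% of all tested genes. The means were 352 ± 48.5 TPM in the libraries labelled vel3 and 1007 ± 306 TPM in Col-0 (SD, n = 3 each), and CRB fell by 1.48 on the log2 scale (SE 0.22, adjusted p = 0.0054, limma), which is 2.79-fold lower. CRB stayed called under all 15 alternatives run on it, with log2 differences of -1.72 (without Col-0 library 2) to -1.27 and adjusted p of 0.000102 to 0.0334. In these bulk samples fewer cells that hold CRB transcript and less of it per cell cannot be told apart.

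The sum of the embryo markers and those that could be tested moved in the same direction as CRB. The summed level of 14 embryo genes was 72.0 to 81.5 TPM in the libraries labelled vel3, against 94.2 to 133 TPM in Col-0. The differences of all 6 that could be tested were below 0, and 8 of the 14 were under a mean of 1 TPM. Those 8 went both ways. PLT1 averaged 0.348 TPM in the libraries labelled vel3 and 0.982 TPM in Col-0, and STM 0.519 TPM in the libraries labelled vel3 and 0.344 TPM in Col-0. BBM, an AP2-family factor of embryo identity, was at 1.13, 1.40 and 1.28 TPM in the libraries labelled vel3, against 4.0, 3.63 and 3.39 TPM in Col-0 (log2 difference -1.04, adjusted p = 0.00316, limma). It was called lower, a call lost without library 1 labelled vel3 (-0.998) or without Col-0 library 1 (-0.993) because the difference is close to the 2-fold minimum. WOX2, a homeobox gene of the apical embryo lineage, was at 21.4, 21.9 and 19.7 TPM in the libraries labelled vel3, against 33.4, 41.0 and 31.9 TPM in Col-0 (-0.72, adjusted p = 0.00702, limma) and did not reach 2-fold. The endosperm list of 12 genes summed to 17909 to 20485 TPM in the libraries labelled vel3 and 16138 to 20113 TPM in Col-0, nearly all of it EPR1, an extensin-like gene of the micropylar endosperm, with 9 of the 12 under 1 TPM and IKU2 at 0 in all 6 libraries. The differences of the 3 endosperm genes that could be tested (EPR1, MAN7 and FWA) were above 0, and 1 was called. MAN7, an endo-beta-mannanase gene of the endosperm, was at 114, 87.0 and 76.6 TPM in the libraries labelled vel3, against 15.7, 58.7 and 28.4 TPM in Col-0 (1.58, SE 0.39, adjusted p = 0.0464, limma). Its call was lost in 8 of 15 alternatives (adjusted p up to 0.166), and without Col-0 library 2 the difference was 2.06. The 12 seed coat genes summed to 40.0 to 47.9 TPM in the libraries labelled vel3 and 37.2 to 47.0 TPM in Col-0. The part of embryo or endosperm tissue in the CRB difference was not tested.

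The other cruciferins were not called. CRA1, the most abundant storage transcript, was at 24607, 25544 and 25451 TPM in the libraries labelled vel3, against 29148, 23351 and 27367 TPM in Col-0. The libraries labelled vel3 lay within the Col-0 range, and the log2 difference was -0.07 (SE 0.22, adjusted p = 0.883, limma). CRU3, the cruciferin C subunit, was at 13212, 13239 and 11976 TPM in the libraries labelled vel3, against 17590, 13235 and 16880 TPM in Col-0. Its groups met at Col-0 library 2, with a log2 difference of -0.30 (SE 0.20, adjusted p = 0.425, limma), and -0.43 (adjusted p = 0.0783) without that library. AT1G03890, for which the tables give no symbol and which is annotated here only as a cruciferin-type globulin, was far below the others. It was at 22.0, 28.2 and 22.8 TPM in the libraries labelled vel3, against 30.7, 11.9 and 17.1 TPM in Col-0 (0.37, SE 0.28, adjusted p = 0.507, limma). Its difference rested on single Col-0 libraries, with 0.07 (adjusted p = 0.854) without Col-0 library 2 and 0.72 (adjusted p = 0.0399, under 2-fold) without Col-0 library 1.

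None of the 5 2S albumins was called at 24HAI. SESA3 had the largest difference, with 12980, 14434 and 15264 TPM in the libraries labelled vel3, against 11177, 8407 and 9683 TPM in Col-0. Every library labelled vel3 was above every Col-0 library, as were 12.5% of all tested genes, and the means were 14226 ± 1156 TPM in the libraries labelled vel3 and 9756 ± 1386 TPM in Col-0 (SD, n = 3 each). The log2 difference of 0.55 (SE 0.19) had an unadjusted p of 0.0179 and an adjusted p of 0.128 in limma. Over 15 alternatives the adjusted p (limma) was 0.0193 (after quantile normalization) to 0.532 (no filter on low values). It was 0.0477 without the variance trend and up to 0.380 on leaving out 1 library. The difference stayed under 2-fold in each alternative run. SESA5, the member on another chromosome, was at 8704, 8470 and 10323 TPM in the libraries labelled vel3, against 13216, 8992 and 13274 TPM in Col-0. Col-0 library 2 was again within the range of the libraries labelled vel3. The log2 difference of SESA5 was -0.35 (SE 0.21, adjusted p = 0.389, limma), and -0.54 (adjusted p = 0.0348) without Col-0 library 2. After quantile normalization it was -0.48 (adjusted p = 0.0193), also under 2-fold. That value mirrors the 0.48 of SESA3, with the same SE and adjusted p (limma). Quantile normalization gives every library the same set of values, so these are not separate results. Over 15 alternatives the adjusted p of SESA5 was 0.0193 to 0.753 (limma).

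SESA2 was at 3364, 3023 and 2557 TPM in the libraries labelled vel3, against 2423, 2027 and 2573 TPM in Col-0 (0.35, SE 0.15, adjusted p = 0.231, limma). The groups overlapped by a narrow margin, library 3 labelled vel3 and Col-0 library 3 being nearly equal. SESA4 was at 2070, 1985 and 2731 TPM in the libraries labelled vel3, against 2669, 1920 and 2600 TPM in Col-0, and SESA1 was at 1856, 1797 and 1386 TPM in the libraries labelled vel3, against 1778, 1508 and 1725 TPM in Col-0. Both overlapped fully, with log2 differences of -0.08 for SESA4 and -0.00 for SESA1.

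PAP85, the vicilin-like globulin, was at 5261, 6387 and 7039 TPM in the libraries labelled vel3, against 9883, 6907 and 8996 TPM in Col-0. Only Col-0 library 2 fell within the range of the libraries labelled vel3. The log2 difference was -0.46 (SE 0.20, unadjusted p = 0.0463, adjusted p = 0.221, limma), and -0.61 (adjusted p = 0.0245) without Col-0 library 2, still under 2-fold. Over 15 alternatives its adjusted p was 0.0245 to 0.528 (limma).

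**Figure D2:**
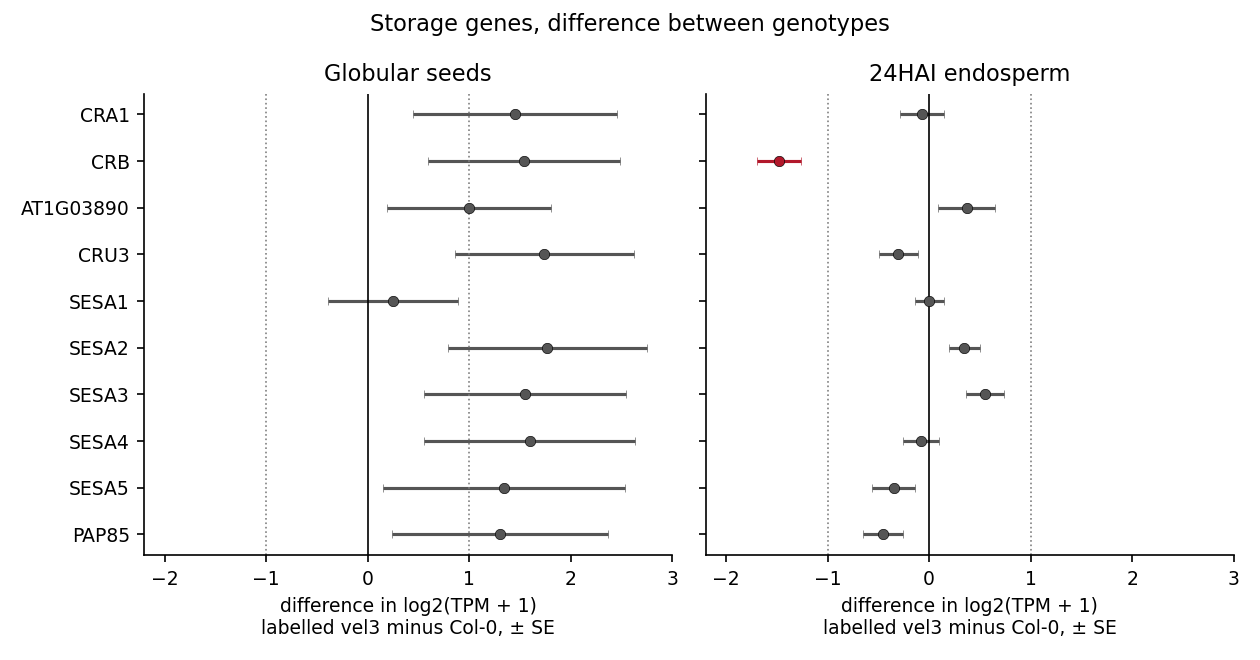
Differences in log2(TPM + 1) between libraries labelled vel3 and Col-0, with the standard error as bars, for the 10 storage genes in globular seeds (left) and 24HAI endosperm (right). Dotted lines mark 2-fold and the red point is the 1 called gene, CRB at 24HAI (-1.48). The globular differences lie above 0 as deposited (2 are below 0 after quantile normalization) with wide errors, and none was called.

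The order of the levels was similar but not the same in the libraries of each label. In the libraries labelled vel3 CRA1 was above SESA3 and CRU3, whose ranges overlapped, followed by SESA5 and PAP85, each apart from its neighbours. In Col-0 CRA1 was followed by CRU3, SESA5, SESA3 and PAP85, and each neighbouring pair of these 4 overlapped over the 3 libraries. SESA2 and SESA4, which overlapped, then SESA1, CRB and AT1G03890 followed in the libraries of each label.

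Shares within the families, chosen after the values had been seen, do not depend on the level of the family as a whole. CRB made up 0.777%, 0.949% and 1.02% of cruciferin TPM in the libraries labelled vel3, against 2.72%, 1.87% and 2.24% in Col-0. Its share was lower in each library labelled vel3 than in any Col-0 library, as was that of CRU3, with means of 33.4% ± 1.54 in the libraries labelled vel3 and 36.5% ± 0.906 in Col-0 (SD, n = 3 each), while CRA1 had the larger share in the libraries labelled vel3, 65.7% ± 1.43 against 61.2% ± 1.20 in Col-0. Among the 2S albumins SESA3 made up 44.8%, 48.6% and 47.3% in the libraries labelled vel3, against 35.7%, 36.8% and 32.4% in Col-0. SESA5 made up 30.0%, 28.5% and 32.0% in the libraries labelled vel3, against 42.3%, 39.3% and 44.5% in Col-0. The 5 2S albumins together held 40.4% ± 1.23 of the TPM of the 10 genes in the libraries labelled vel3 and 34.9% ± 0.718 in Col-0, and PAP85 held 8.29% ± 0.943 in the libraries labelled vel3 and 10.7% ± 0.389 in Col-0. Of 11 such shares computed, 8 did not overlap between the groups, the 7 given here and that of all cruciferins. Each of these has an exact two-sided permutation p of 0.1, the smallest that 3 against 3 libraries can reach (0.138 when adjusted over the 11), so none can pass 0.05. The shares of a family sum to 100% and are not independent of each other.

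**Figure D3:**
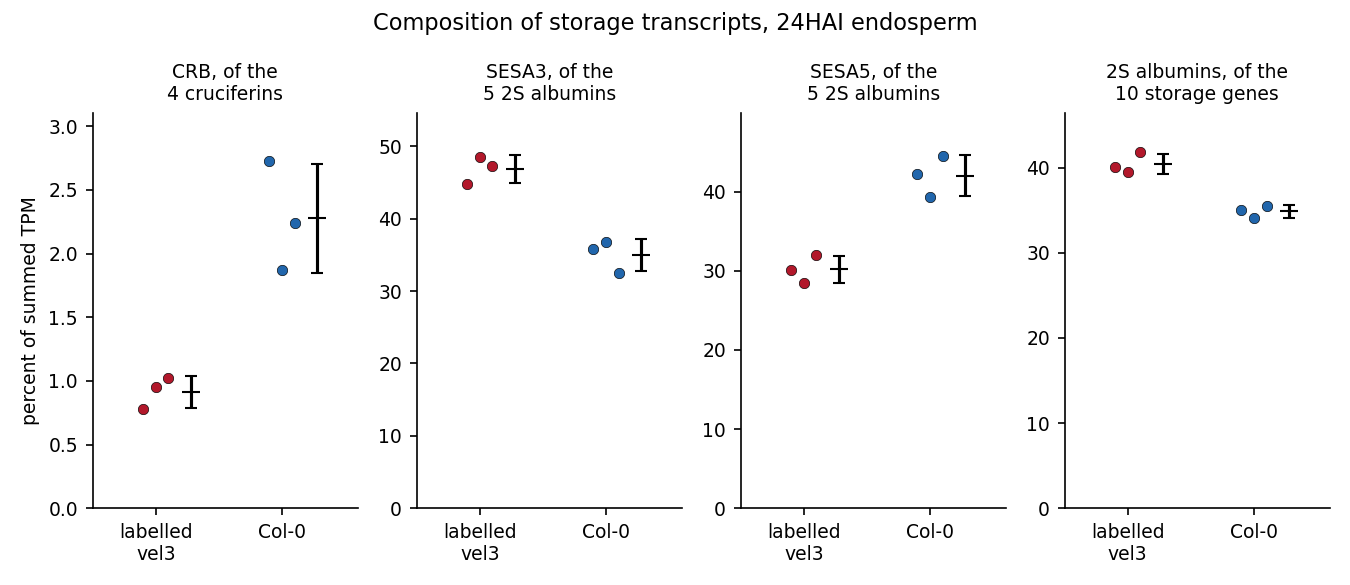
Shares of summed TPM in 24HAI endosperm in percent, for CRB among the 4 cruciferins, SESA3 and SESA5 among the 5 2S albumins, and the 2S albumins among the 10 storage genes. Points are the 3 libraries of each label, the black marks are mean and SD, and each axis starts at 0. SESA3 was at 44.8% to 48.6% in libraries labelled vel3 and 32.4% to 36.8% in Col-0, and SESA5 at 28.5% to 32.0% in libraries labelled vel3 and 39.3% to 44.5% in Col-0.

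In globular seeds, before storage genes are normally active, the 10 genes were near the floor of the table. Their levels were 1.38 to 4.62, 0.120 to 0.949 and 6.76 to 9.71 TPM in libraries 1, 2 and 3 labelled vel3, against 0 to 2.75, 0.138 to 1.23 and 0 to 3.77 TPM in Col-0 libraries 1, 2 and 3. Library 3 labelled vel3 was highest of its label for all 10 genes, and in it 0 of 10 were above the 10.0 TPM median of the nuclear genes that were listed at 0 at 24HAI. In library 1 labelled vel3, 9 of 10 were above the corresponding median of 1.43 TPM, 2 of them above 3 times that median, and in library 2 labelled vel3 7 of 10 were above the median and 0 above 3 times it. In Col-0 libraries 1, 2 and 3, 7, 5 and 3 of 10 were above the median of their library, and 2, 2 and 1 above 3 times it.

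**Figure D4:**
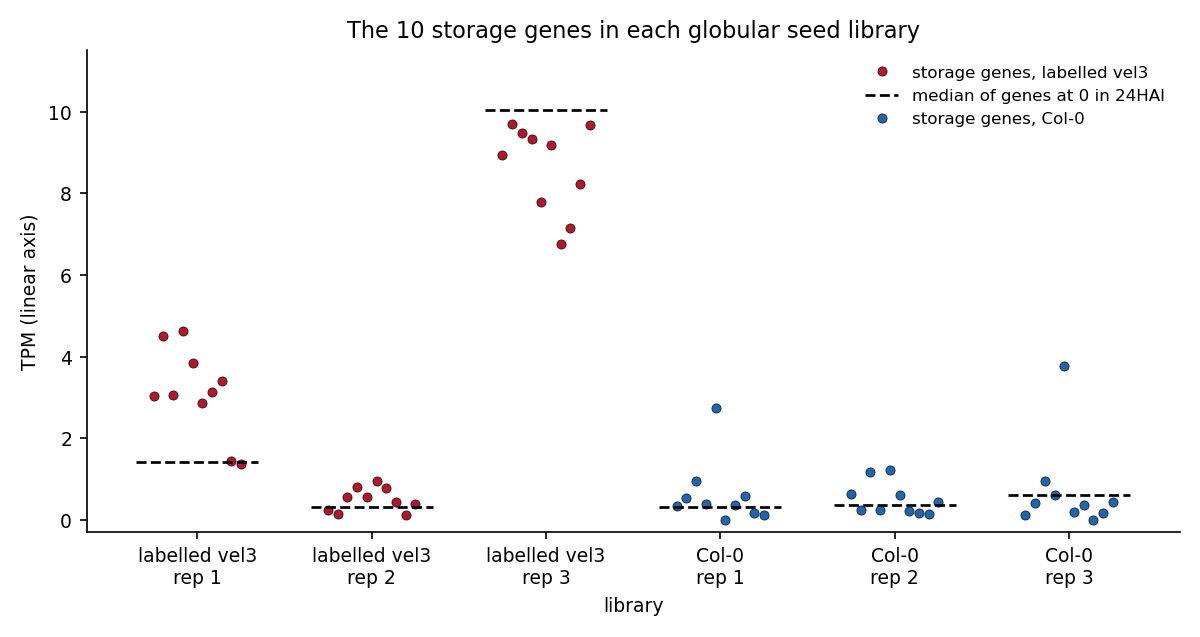
TPM of the 10 storage genes (points) in each globular seed library on a linear axis, with the library median of 4212 nuclear genes listed at 0 in every 24HAI library as a dashed line. The points of library 3 labelled vel3 (6.76 to 9.71 TPM) all lie below its line at 10.0 TPM, and the high Col-0 points at 2.75 and 3.77 TPM are SESA1.

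All 10 were tested in globular seeds and 0 were called in either direction, beside 2.08% of 26593 genes (1.71% higher and 0.369% lower). Their log2 differences were 0.25 (SESA1) to 1.77 (SESA2), all above 0 as deposited but with 1 below 0 under median-ratio scaling and 2 after quantile normalization, and adjusted p of 0.441 to 0.792 (limma). Their median was 1.50, beside 0.50 over all genes tested, and after quantile normalization, which moved the median of all genes to -0.02, the members' median was 0.32. Without library 3 labelled vel3, 4 of the 10 passed the filter of 1 TPM, so most passed it through that library. CRU3 was at 4.62, 0.804 and 9.32 TPM in the libraries labelled vel3, against 0.383, 0.256 and 0.621 TPM in Col-0 (1.74, SE 0.88, unadjusted p = 0.0491, adjusted p = 0.441, limma). CRU3, SESA2 and SESA3 were the members whose groups did not overlap, all 3 higher in the libraries labelled vel3, as were 20% of all tested genes.

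SESA1 was the exception in Col-0, the member with the highest Col-0 levels in globular seeds. It was at 3.86, 0.567 and 7.78 TPM in the libraries labelled vel3, against 2.75, 1.23 and 3.77 TPM in Col-0. Its groups overlapped and its difference had no settled sign, 0.25 as deposited and -0.31 without library 3 labelled vel3 (adjusted p = 0.792 and 0.755, limma). CRB, lower at 24HAI, was at 4.50, 0.153 and 9.71 TPM in the globular libraries labelled vel3, against 0.549, 0.246 and 0.427 TPM in Col-0, and library 2 labelled vel3 was below all 3 Col-0 libraries. The 10 genes together held 0.00508% ± 0.00529 of the TPM sum in the libraries labelled vel3 and 0.000744% ± 0.000137 in Col-0 (SD, n = 3 each, exact permutation test, two-sided, p = 0.4). The difference of 0.00434 percentage points was 0.00143 without library 3 labelled vel3.

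The genotype difference was compared between the stages in a model of the 4 groups, each difference being taken within its own table. The difference at 24HAI minus that in globular seeds was below 0 for all 10 genes as deposited, for 9 under median-ratio scaling and for 7 after quantile normalization. Over all genes tested the median difference was 0.50 in globular seeds and -0.00 at 24HAI as deposited. These medians are over the genes tested at each stage, not over the 15813 genes of this model. The share of those genes with a contrast below 0 was not counted. Whether a contrast below 0 is particular to the storage genes was thus not tested. It was -3.02 (SE 0.81) for CRB, with an adjusted p of 0.108, and -2.04 (SE 0.63) for CRU3, with an adjusted p of 0.156 (limma). None of the 10 passed 0.05, beside 1.01% of 15813 genes. After quantile normalization CRB (-2.13, adjusted p = 0.0285) and SESA5 (-0.71, adjusted p = 0.0367) passed. SESA5 passed the globular filter only through library 3 labelled vel3, at 8.23 TPM, below the 10.0 TPM median of that library. CRB averaged 0.407 TPM in globular Col-0, so it passed the filter of 1 TPM only through the libraries labelled vel3. Its 9.71 TPM in library 3 labelled vel3 was also below that median. The globular values behind these contrasts are those near the floor described above.

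In mature endosperm the table listed 640 genes, and SESA2 was the only storage gene among them, with the highest mean of the table. It was at 2446, 2189 and 1668 TPM in the libraries labelled vel3, against 940, 827 and 1589 TPM in Col-0, and the means were 2101 ± 396 TPM in the libraries labelled vel3 and 1119 ± 411 TPM in Col-0 (SD, n = 3 each). Library 3 labelled vel3 and Col-0 library 3 lay close together. All 640 genes had a higher mean in the libraries labelled vel3, with log2 ratios of means of 0.85 to 1.14 (SESA2 0.91), so the direction of SESA2 is that of every gene listed. How the listed genes were chosen is not given in the sources used here, and no test was run. The other 9 storage genes were not analysed here in mature endosperm.

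Around the 10 genes, the lists of related genes held few calls. Of 5 other cupin globulins 4 were tested at 24HAI and 0 called. AT2G28490, the most abundant, was at 1259 ± 84.6 TPM in the libraries labelled vel3 and 1035 ± 186 TPM in Col-0 (SD, n = 3 each). Another 2 passed the adjusted p but not 2-fold, beside 7.6% of all genes with an adjusted p under 0.05, and are named after their values were seen. AT4G36700 was at 121 ± 4.05 TPM in the libraries labelled vel3 and 195 ± 31.5 TPM in Col-0 (-0.67, adjusted p = 0.0143, limma), and AT1G07750 at 25.6 ± 0.406 TPM in the libraries labelled vel3 and 16.6 ± 1.84 TPM in Col-0 (0.60, adjusted p = 0.0105, limma). In globular seeds 0 of these 5 was called, and AT1G07750 was the most abundant, at 102 ± 43.6 TPM in the libraries labelled vel3 and 123 ± 7.26 TPM in Col-0.

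Among 13 factors known to activate maturation genes, 9 were tested at 24HAI and 0 called. The bZIP factor ABI5, the most abundant, was at 227, 255 and 270 TPM in the libraries labelled vel3, against 271, 273 and 313 TPM in Col-0 (-0.19, adjusted p = 0.331, limma). EEL, a bZIP factor related to ABI5 and named after its values were seen, was at 21.1 ± 2.17 TPM in the libraries labelled vel3 and 29.5 ± 2.29 TPM in Col-0 (SD, n = 3 each), a difference of -0.47 that passed the adjusted p (0.0335, limma) but not 2-fold. In globular seeds all 13 were tested and 1 was called. LEC1, the CCAAT-box factor that acts at the top of the embryo maturation programme, fell to 13.7, 16.9 and 17.3 TPM in the libraries labelled vel3, against 78.1, 40.0 and 59.6 TPM in Col-0 (-1.78, SE 0.19, adjusted p = 3.05e-18, limma). It stayed called without any 1 library and lost the call without the variance trend (adjusted p = 0.192), under which 0 genes of the whole globular table were called. The small adjusted p thus rests on the variance trend over all genes more than on the spread of LEC1 itself. The summed embryo markers were 318 to 450 TPM in the globular libraries labelled vel3 and 481 to 595 TPM in Col-0. Most of that sum was PDF1, a gene of the outer cell layer, at 305, 160 and 195 TPM in the libraries labelled vel3, against 355, 454 and 390 TPM in Col-0 (-0.90, adjusted p = 0.124, limma). Of the 14 embryo markers 10 had differences above 0 and 4 below, 0 were called, and their median was 0.59, beside 0.50 over all genes tested. Their part in the LEC1 difference was not tested.

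Among 9 known repressors of storage genes, 6 were tested at 24HAI and 0 called. The histone deacetylase gene HDA19, the most abundant, was at 93.6 ± 4.08 TPM in the libraries labelled vel3 and 99.5 ± 8.05 TPM in Col-0 at 24HAI, and at 165 ± 48.8 TPM in the libraries labelled vel3 and 194 ± 9.25 TPM in Col-0 in globular seeds (SD, n = 3 each). In globular seeds all 9 were tested and 1 was called, MYB118, an endosperm factor known to hold back maturation genes in that tissue. It fell to 1.63, 1.20 and 7.98 TPM in the libraries labelled vel3, against 24.6, 11.2 and 17.7 TPM in Col-0 (-2.27, SE 0.34, adjusted p = 6.50e-09, limma). Its value in library 3 labelled vel3 lay below the 10.0 TPM median of that library described above, and without that library the difference was -2.90 (adjusted p = 0.000235). As with LEC1, the call was lost without the variance trend (adjusted p = 0.5). The 12 endosperm markers summed to 338 to 470 TPM in the globular libraries labelled vel3 and 265 to 270 TPM in Col-0. Of these 12, 5 were called higher, PHE1, AGL62, YUC10, TAR1 and MINI3, and 0 lower. Over all genes tested in globular seeds, 1.71% were called higher and 0.369% lower. PHE1, an imprinted MADS-box gene, had the largest share of the added TPM, with 148, 166 and 75.0 TPM in the libraries labelled vel3, against 21.3, 27.5 and 20.0 TPM in Col-0 (2.39, limma). EPR1 (-0.93, adjusted p = 0.00041), ZOU (-0.99, adjusted p = 0.0191) and FIS2 (-0.995, adjusted p = 0.00218, limma) were below Col-0 by less than 2-fold. The paper reports paternally expressed, MADS-box and auxin biosynthesis genes as raised in the mutant. Markers of these kinds, PHE1 among them, thus do not measure how much endosperm a library holds. The part of endosperm tissue in the MYB118 difference was not tested.

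Among 16 genes of storage protein sorting and processing, 1 was called at 24HAI. The vacuolar processing enzyme gene delta-VPE, of a family that cuts storage precursors and is known from the inner seed coat, rose to 75.3, 53.0 and 59.6 TPM in the libraries labelled vel3, against 12.3, 42.3 and 16.8 TPM in Col-0 (1.54, SE 0.38, adjusted p = 0.0443, limma). Its call was lost in 9 of 15 alternatives, among them leaving out any 1 library except Col-0 library 2 (adjusted p up to 0.174), and without Col-0 library 2 the difference was 2.03. TIP3;1, the tonoplast aquaporin of protein storage vacuoles, was the most abundant of the list, at 2095 ± 79.7 TPM in the libraries labelled vel3 and 1980 ± 321 TPM in Col-0. beta-VPE, the seed-type enzyme of that family, was at 907 ± 67.2 TPM in the libraries labelled vel3 and 857 ± 53.9 TPM in Col-0 (SD, n = 3 each) and is named after its values were seen. In globular seeds 0 of 16 was called, and delta-VPE was the most abundant, at 5670, 6830 and 5154 TPM in the libraries labelled vel3, against 8511, 8254 and 7944 TPM in Col-0 (-0.49, adjusted p = 0.952, limma). Every library labelled vel3 was below every Col-0 library, as were 3.97% of all genes tested there, but the SE of 5.22 that the variance trend gave at this level leaves the difference without a useful error.

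Of 6 cysteine proteases linked to the breakdown of reserves, 4 were tested at 24HAI and 1 was called. CEP1, a papain-type endopeptidase known from dying cells, rose to 4.30, 3.47 and 2.48 TPM in the libraries labelled vel3, against 1.12, 0.999 and 0.792 TPM in Col-0 (1.15, SE 0.18, adjusted p = 0.00813, limma), a low level in each group. Its Col-0 mean was 0.970 TPM, so CEP1 passed the filter of 1 TPM only through the libraries labelled vel3, where it was high. CP1, the most abundant, was at 246, 162 and 133 TPM in the libraries labelled vel3, against 82.5, 508 and 153 TPM in Col-0. Col-0 library 2, lowest of Col-0 for the 10 storage genes, was here the highest of all 6 libraries. In globular seeds 0 of the 6 was called, with the aleurain-like protease ALP the most abundant, at 86.9 ± 41.0 TPM in the libraries labelled vel3 and 89.6 ± 3.87 TPM in Col-0 (SD, n = 3 each).

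**Figure D5:**
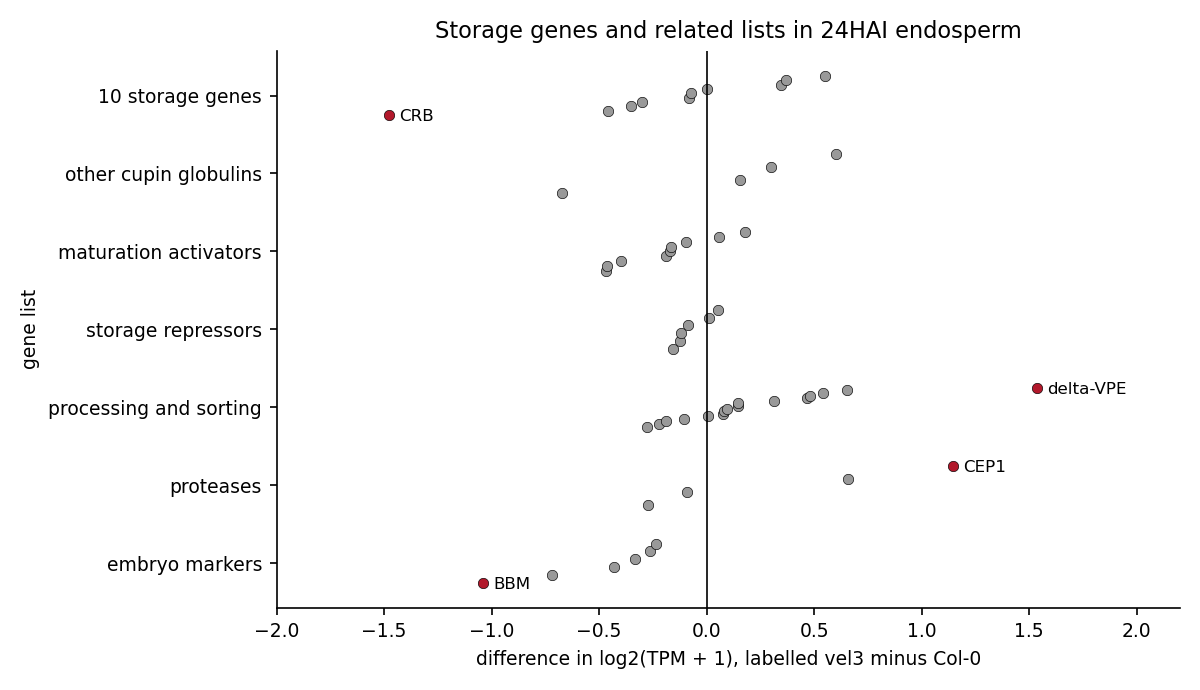
Differences in log2(TPM + 1) between libraries labelled vel3 and Col-0 at 24HAI (x axis) for each tested gene of the storage list and of 6 related lists (rows). Called genes are red and named, CRB at -1.48, delta-VPE at 1.54, CEP1 at 1.15 and BBM at -1.04, and the 6 tested embryo markers all lie below 0.

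The genes whose profile over the 6 libraries was most like that of the storage genes were found by Pearson correlation of log2(TPM + 1) with the mean of the 10, among genes of at least 10 TPM. At 24HAI they were DJ1D (r = 0.99), GASA2 (0.99), GolS1 (0.99), BGLU19 (0.97) and AT2G01175 (0.97), of 9454 candidates, of which 0.688% had r over 0.9. In globular seeds they were ATMG01410, PTAC7, ATMG00120, AT2G07798 and AT1G77230, all at r of 0.99 after rounding, of 11207 candidates, of which 1.85% had r over 0.9. The 6 points of each stage share their libraries, and at the globular stage the profile mainly follows the high values of library 3 labelled vel3, so these correlations are a description only.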

How the data were processed

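RNA was sequenced from 18 of the 38 samples, 3 libraries for each genotype at each of 3 stages; the 20 ChIP samples were not used here. Per the study's methods and processing notes, the authors used cutadapt (1.9.1) for trimming, STAR (2.5) for mapping to TAIR10, featureCounts for sense-strand counts and edgeR for their tests. The authors deposited TPM values, 1 table per stage, and no counts, so the count test of the study could not be used. In the mature table all 640 genes have a higher mean in the libraries labelled vel3. TPM carries no read counts, so no counting interval is given. The TPM sums were 790391 to 892760 in globular and 979241 to 982037 in 24HAI libraries. Value columns belonging to no sample or group numbered 0. Globular libraries are numbered by their column names, which give the genotype and a number but could not be tied to a sample each.

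Log2(TPM + 1) values, computed from the deposited TPM, were fitted with limma (3.58.1, R 4.3.3) with a variance trend, per stage, for genes that averaged 1 TPM or more. P-values were Benjamini-Hochberg adjusted over all tested genes, and a call needed an adjusted p under 0.05 and a 2-fold difference. Stages were compared by an interaction term. Shares were tested by exact permutation. Python (3.11.15), pandas (2.3.3), numpy (2.4.6), scipy (1.17.1) and matplotlib (3.10.9) were used. The fit was checked on simulated data. Gene positions and coding identities came from the RefSeq TAIR10.1 genome, to which 26715 of 26925 genes matched by identifier. Sequence upstream of the genes is not reported here. Replicates are pooled plants, and permutation p-values measure the spread between these samples. The limma p-values also use a variance trend over all genes. In globular seeds that trend outweighed a gene's own spread, as in the SE of 5.22 for delta-VPE, and without it 0 genes were called.

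The members and lists were chosen with earlier results of these data known. All 10 storage genes are named; from the lists of other cupin globulins, maturation activators, storage repressors, processing and sorting genes and proteases, called genes (up to 5 per list and stage) and the gene with the highest mean; and the 5 genes most alike in profile. Tissue markers are named where they bear on a result, after their values were seen. Alternatives were pseudocount 0.1, no filter, a mean of at least 5 TPM, other scalings, no variance trend, no fold minimum, a replicate block, and leaving out each library in turn. For the called genes of those lists, BBM and MAN7 these were added after seeing the data.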

Additional observations from a re-analysis of the deposited data

Results flagged for a closer look

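SESA2 was the storage gene listed in mature endosperm, in a table that no comparison uses, with a mean of 2101 TPM in the libraries labelled vel3, against 1119 TPM in Col-0. It is given because that table stands outside the comparisons. Every library labelled vel3 lay above every Col-0 library for SESA2, as for 27.7% of the 640 genes listed, all 640 had a higher mean in the libraries labelled vel3, and no test was run.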

How the results depend on the processing

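The number of storage genes called (0 higher and 1 lower at 24HAI, 0 and 0 in globular seeds) was the same under all 16 alternatives at 24HAI and all 17 in globular seeds, but at a mean of at least 5 TPM, after background subtraction and without vel3 replicate 3 only 0, 1 and 4 of the 10 could be tested in globular seeds, so these 3 say nothing of the others. The shares of library TPM kept their sign, with differences of -1.18 to -0.0593 percentage points at 24HAI and 0.00143 to 0.00660 in globular seeds on leaving out 1 library. The count over all genes moved. In globular seeds 552 genes were called, against 258 after quantile normalization, 0 without the variance trend, 856 with no fold minimum, 228 after subtracting the background and 418 to 897 on leaving out 1 library (897 without vel3 replicate 2). At 24HAI 382 were called, against 204 at a mean of at least 5 TPM, 1209 with no fold minimum and 245 to 591 on leaving out 1 library (245 without vel3 replicate 1, 591 without Col-0 replicate 2). The cause was not tested.

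Differences that changed sign were all uncalled. In globular seeds SESA1 was at -0.11 under median-ratio scaling, -0.75 after quantile normalization, -0.88 after background subtraction and -0.31 to 0.94 on leaving out 1 library, and AT1G03890 was at -0.11 after quantile normalization. At 24HAI, leaving out 1 library gave -0.0784 to 0.132 for SESA1 and -0.235 to 0.00401 for SESA4. The difference between stages turned for SESA1 under median-ratio scaling (0.0925) and, after quantile normalization, for SESA1 (0.59), AT1G03890 (0.28) and SESA3 (0.0381).

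The replicate numbers share only a number: deviations of same-numbered libraries correlated at -0.39, 0.02 and 0.22 at 24HAI and at 0.07, 0.18 and 0.31 in globular seeds. With the replicate block 362 genes were called at 24HAI and 528 in globular seeds, and CRB was at -1.48 (adjusted p = 0.0161, limma). TPM carries no read counts, and storage transcripts in globular seeds lie near the background of the table.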
